A study of Mus musculus with 16 samples.

Results

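The heat shock chaperones described here are 10 genes of the cytosol and the mitochondrion: Hspb1, Dnaja1, Dnajb1, Hspa8, Hspa1b, Hsph1, Hsp90aa1, Hsp90ab1, Hspd1 and Hspe1. They were chosen by name, with earlier results of these data known. Each was read on the array by the probe set that names it alone, taking the one of highest mean signal where there were several. Of the 10, 8 had such a probe set, out of 19938 genes with one in the whole series, and all 8 were bright enough to be tested among 13152 genes. Hspa1b was read by a probe set that it shares with Hspa1a, so its values belong to both genes together, and Hsp90ab1 was not analysed here.

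RNA of mouse liver was measured on 16 Affymetrix arrays, 4 for each of 4 genotypes on strain 129. The groups were Rassf1a-/- Sav1+/- mice (both alleles of Rassf1a lost and 1 copy of Sav1 lost), Sav1+/- mice (1 copy of Sav1 lost), Rassf1a-/- mice (both alleles of Rassf1a lost) and wild-type mice, with no treatment given in the labels. Rassf1a is the longer form of the tumour suppressor gene Rassf1, and Sav1 encodes an adaptor of the Hippo kinases. Age, sex, time of day and the design of the alleles were not given in the sources used here, nor that each sample is a different animal, so p-values measure only the spread between these samples. The labels give no replicate numbers, and those used below follow the order of the samples within each genotype.

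Heat shock proteins hold other proteins in a folded or foldable state. HSP70 proteins bind short exposed stretches of a client and release them as ATP is used. J proteins (the DNAJ family) deliver clients to HSP70 and start its ATP cycle, HSP110 proteins exchange its nucleotide, and HSP90 takes clients on for their final folding. Small heat shock proteins such as HSPB1 hold unfolding proteins without using ATP, and in the mitochondrial matrix the HSP60 chamber (Hspd1) works with its HSP10 lid (Hspe1). Most of these genes carry heat shock elements, inverted repeats of the bases GAA and TTC bound by the factor HSF1, and in liver their transcripts also vary with feeding, body temperature and time of day.

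To show what the genes share in sequence, their RefSeq promoter windows (build GRCm38.p6, 250 bases before to 50 after an annotated start) were searched for such repeats. Windows were found for 7 of the 10 genes, 12 windows in all. The pairs GAANNTTC and TTCNNGAA, each of which reads the same on both strands, stood in 7.86% and 8.52% of all 32851 promoter windows of that length and in windows of 9.04% and 9.60% of the genes, and 6 of the 7 genes had at least 1 of them. The share of all genes with either pair is at least as large as the larger of these and was not counted. Runs of 3 units (GAANNTTCNNGAA or TTCNNGAANNTTC, both strands, which contain the pairs) were in 0.603% of all windows and 0.662% of all genes, and in those of Hspd1, Hspe1 and Hsph1, where Hspd1 and Hspe1 share 1 site. Dnajb1 had none of these letters in either of its 2 windows. The windows below are those of the 2 genes that passed the test for Rassf1a loss and of the mitochondrial pair, which shares a promoter, with matches in capitals.
Hspb1, chr5:135887669-135887968, plus strand: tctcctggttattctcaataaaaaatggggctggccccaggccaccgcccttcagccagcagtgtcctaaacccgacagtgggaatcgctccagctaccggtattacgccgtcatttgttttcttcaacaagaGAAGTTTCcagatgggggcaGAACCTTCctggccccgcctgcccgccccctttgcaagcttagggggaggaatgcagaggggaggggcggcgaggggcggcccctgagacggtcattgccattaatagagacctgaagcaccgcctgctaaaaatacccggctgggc
Dnaja1, the first of 3 windows, chr4:40722218-40722517, plus strand: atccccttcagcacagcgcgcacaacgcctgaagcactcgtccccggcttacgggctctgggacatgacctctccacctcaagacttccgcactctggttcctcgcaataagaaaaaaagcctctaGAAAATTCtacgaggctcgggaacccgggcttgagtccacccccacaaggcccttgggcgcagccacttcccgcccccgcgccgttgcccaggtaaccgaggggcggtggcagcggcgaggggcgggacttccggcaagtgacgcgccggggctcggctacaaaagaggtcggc
Hspe1, chr1:55087898-55088197, plus strand: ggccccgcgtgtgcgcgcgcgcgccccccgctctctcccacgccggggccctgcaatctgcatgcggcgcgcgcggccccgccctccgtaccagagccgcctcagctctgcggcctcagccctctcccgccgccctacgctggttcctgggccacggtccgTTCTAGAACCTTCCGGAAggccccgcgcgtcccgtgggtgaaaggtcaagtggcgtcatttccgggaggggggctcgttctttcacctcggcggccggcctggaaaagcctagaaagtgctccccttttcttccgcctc

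The Hspb1 window held 2 pairs, GAAGTTTC and GAACCTTC, and the Dnaja1 window held 1, GAAAATTC. The window of Hspe1 and 1 window of Hspd1, which is read from the opposite strand, overlap by 285 bases and hold the same 18 bases at chr1:55088059-55088076, a run of 4 units found in 0.0244% of all windows. On the strand of Hspe1 these bases are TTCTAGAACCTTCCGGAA, and on the strand of Hspd1 they are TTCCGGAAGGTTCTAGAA. In Hsph1 a run of 3 units, TTCTGGAAAGTTC, lay just after the start at chr5:149636288-149636300 (minus strand). A match of letters is a description and not a measured site of HSF1 binding.

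Some facts of the whole series touch these genes. On 5 arrays the mean of 3 Y-linked genes was at least 8.87, against at most 4.17 on the other 11, all on the log2 scale. These 5 were Rassf1a-/- Sav1+/- replicates 1 and 2, Sav1+/- replicates 3 and 4 and Rassf1a-/- replicate 2, and none was wild type. Xist, a transcript of female cells, read 2.12 to 4.31 on these 5 arrays and 10.34 to 11.47 on the other 11. By both signals the 5 read as male livers and the other 11 as female. Sex was therefore not balanced over the genotypes, and all wild-type arrays read as female. Hepatocyte markers (6 of 8 listed were among the tested genes) averaged 13.4 to 13.7 on every array. In bulk liver, fewer cells of a type and less RNA per cell cannot be told apart. Sav1 stood at -0.88 in Rassf1a-/- Sav1+/- livers (SE 0.17, adjusted p = 0.0230) and at -0.90 in Sav1+/- livers (SE 0.17, adjusted p = 0.110), both against wild type. The probe set of Rassf1 may read exons that the gene's forms share, so its difference of -0.10 with Rassf1a lost (SE 0.14, adjusted p = 0.771) checks nothing about Rassf1a.

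Hspb1, the small heat shock protein of the set, had the largest averaged difference of the 8 measured members, and it was higher where Rassf1a was lost. Its log2 signal was 10.26, 9.86, 9.52 and 9.51 on the Rassf1a-/- Sav1+/- arrays, against 8.54, 7.76, 8.63 and 9.59 on the Sav1+/- arrays. It was 10.15, 10.23, 9.83 and 10.06 on the Rassf1a-/- arrays, against 9.41, 9.01, 8.98 and 9.17 on the wild-type arrays. All 4 Rassf1a-/- arrays lay above all 4 wild-type arrays, and in the Sav1+/- background Sav1+/- replicate 4 reached into the range of the arrays without Rassf1a. The group means were 9.79 ± 0.35 in Rassf1a-/- Sav1+/-, 8.63 ± 0.75 in Sav1+/-, 10.07 ± 0.17 in Rassf1a-/- and 9.14 ± 0.20 in wild-type livers (SD, n = 4 each). From the highest, the order was Rassf1a-/-, Rassf1a-/- Sav1+/-, wild type and Sav1+/-, and the neighbours at each end of that order differed by less than the larger of their SDs.

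Hspb1 rose by 1.04 on the log2 scale with the loss of Rassf1a averaged over both Sav1 states (SE 0.19, 2.06-fold, limma adjusted p = 0.00754). The parts of that average share no array. Within the wild-type Sav1 background the difference was +0.92 (SE 0.28, 95% interval 0.34 to 1.50, adjusted p = 0.178), and within the Sav1+/- background it was +1.16 (SE 0.28, interval 0.58 to 1.74, adjusted p = 0.0583). Neither passed on its own over 13152 genes, and their difference, the interaction, was +0.23 (SE 0.39, interval -0.59 to 1.06). The double genotype was 0.65 above wild type (SE 0.28, adjusted p = 0.313), with all 4 arrays above the 4 wild-type ones. That difference was +0.33 with the Y-linked signal added to the fit (SE 0.24, adjusted p = 0.709). It was +0.37 without the 5 arrays with Y-linked signal (SE 0.22, adjusted p = 0.998). Sav1+/- livers stood at -0.51 against wild type (SE 0.28, adjusted p = 0.621). That last value was -0.22 without Sav1+/- replicate 2, -0.83 without Sav1+/- replicate 4 and -0.99 without the 5 arrays with Y-linked signal. The averaged call kept its side of the threshold in all 25 alternative settings tried, between +0.90 and +1.20, including the fit that left out the 5 arrays with Y-linked signal (+1.12, adjusted p = 0.00508).

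**Figure D1:**
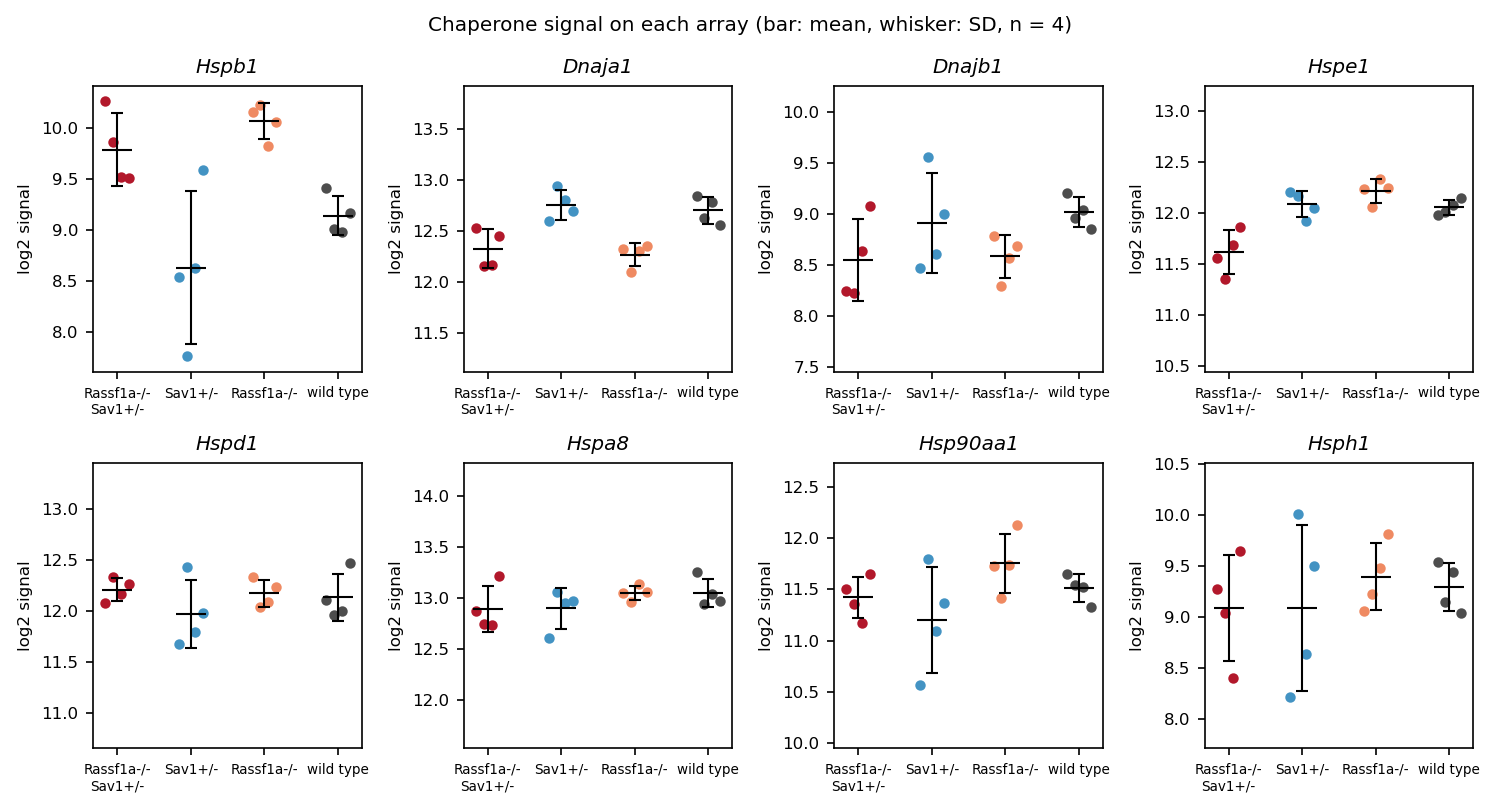
Log2 signal of 8 chaperone genes (y axis, every panel spanning the same number of log2 units) on each of 16 arrays, by genotype (x axis), with a bar for the mean and whiskers for the SD of 4 arrays. The Rassf1a-/- points of Hspb1 all lie above those of wild type and the Dnaja1 points without Rassf1a all lie below those with it, while for Hsph1 the Sav1+/- arrays alone span 8.22 to 10.02.

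Of the J proteins, Dnaja1, a cytosolic partner of HSP70, was lower where Rassf1a was lost. Its signal was 12.53, 12.16, 12.17 and 12.45 on the Rassf1a-/- Sav1+/- arrays, against 12.60, 12.94, 12.81 and 12.70 on the Sav1+/- arrays. It was 12.32, 12.10, 12.30 and 12.35 on the Rassf1a-/- arrays, against 12.85, 12.63, 12.79 and 12.56 on the wild-type arrays. All 8 arrays without Rassf1a lay below all 8 arrays with it, by a margin of less than 0.1 between the nearest 2. Dnaja1 fell by 0.43 on the log2 scale in the averaged comparison (SE 0.09, 1.35-fold, adjusted p = 0.0161). The difference was -0.43 against wild type (adjusted p = 0.175) and -0.43 in the Sav1+/- background (adjusted p = 0.120), each with SE 0.13. The interaction was 0.00 (SE 0.18), with an interval of -0.38 to 0.39.

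The Dnaja1 call rests on which probe set stands for the gene. The numbers of probe sets on this array follow the genome, and the set used here (10521587) is numbered among genes of chromosome 5, while Dnaja1 lies on chromosome 4. The set numbered among chromosome 4 genes (10503995) read 9.40, 9.20, 8.97 and 9.43 on the Rassf1a-/- Sav1+/- arrays, against 9.29, 9.74, 9.32 and 9.88 on the Sav1+/- arrays. It read 9.15, 9.21, 9.29 and 9.36 on the Rassf1a-/- arrays, against 9.63, 9.72, 9.28 and 9.65 on the wild-type arrays. With that set the groups overlapped and the averaged difference was -0.32 (SE 0.11, adjusted p = 0.157), and the 2 sets correlated at Pearson r = 0.68 over 16 arrays. Leaving out the 5 arrays with Y-linked signal gave the first set a difference of -0.42 (SE 0.13, adjusted p = 0.193).

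Dnajb1, the J protein of the heat shock response, had 8.25, 8.23, 8.64 and 9.08 on the Rassf1a-/- Sav1+/- arrays, against 8.48, 9.56, 8.61 and 9.002 on the Sav1+/- arrays. On the Rassf1a-/- arrays it had 8.79, 8.30, 8.57 and 8.69, against 9.21, 8.97, 9.05 and 8.86 on the wild-type arrays. The Rassf1a-/- arrays lay below the wild-type arrays without overlap, and the groups of the Sav1+/- background overlapped. The averaged difference was -0.40 (SE 0.16, interval -0.73 to -0.06), which did not pass over all genes (adjusted p = 0.221).

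**Figure D2:**
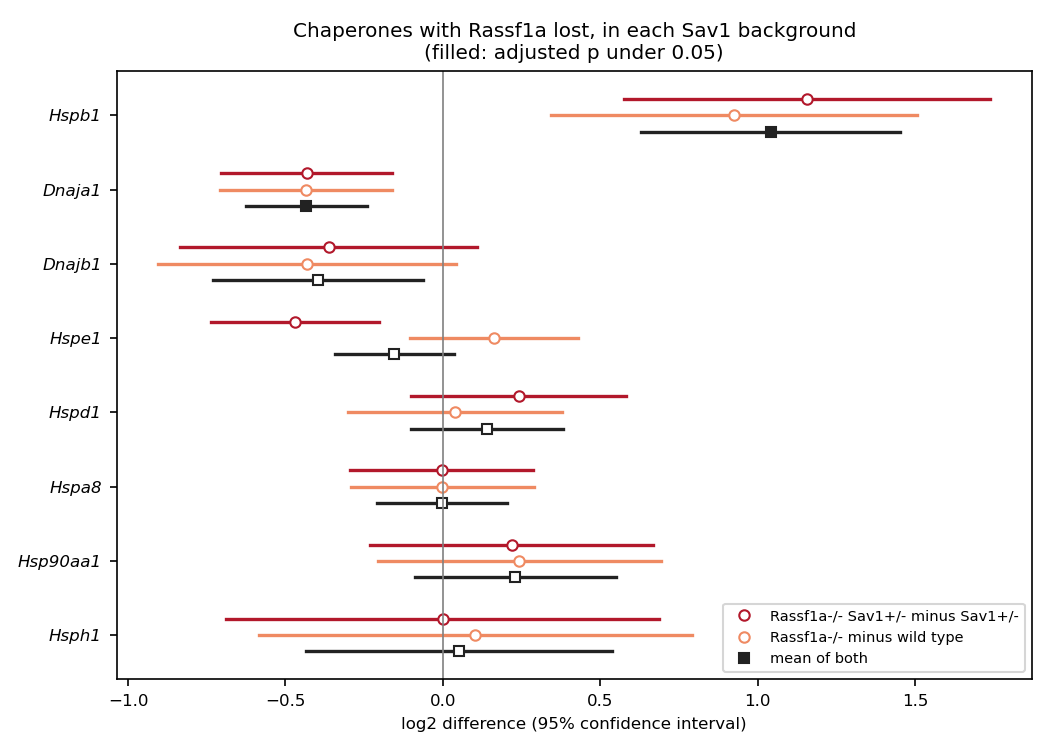
Log2 difference with Rassf1a lost (x axis) for 8 chaperone genes (rows), within the Sav1+/- background, within the wild-type background and as the mean of both, with lines for 95% confidence intervals and filled symbols for an adjusted p under 0.05. Hspb1 at +1.04 and Dnaja1 at -0.43 are the 2 filled means, and Hspe1 has its 2 backgrounds on opposite sides of 0.

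The HSP70, HSP110 and HSP90 genes showed no difference between genotypes that passed. Hspa8, the constitutive cytosolic HSP70, had 12.87, 12.75, 12.74 and 13.22 on the Rassf1a-/- Sav1+/- arrays, against 12.61, 13.07, 12.96 and 12.97 on the Sav1+/- arrays. It had 13.05, 12.96, 13.14 and 13.06 on the Rassf1a-/- arrays, against 13.25, 12.95, 13.04 and 12.97 on the wild-type arrays. The groups overlapped throughout, and the averaged difference was 0.00 with an interval of -0.21 to 0.20 on the log2 scale. The set numbered at the Hspa8 gene itself gave -0.17 (SE 0.13, adjusted p = 0.566).

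Hsp90aa1, the inducible cytosolic HSP90, had 11.50, 11.36, 11.17 and 11.65 on the Rassf1a-/- Sav1+/- arrays, against 10.56, 11.80, 11.09 and 11.37 on the Sav1+/- arrays. It had 11.73, 11.42, 11.74 and 12.13 on the Rassf1a-/- arrays, against 11.65, 11.55, 11.53 and 11.33 on the wild-type arrays. The groups overlapped in both pairs, and its averaged difference was +0.23 (SE 0.15, interval -0.09 to 0.55, adjusted p = 0.498).

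Hsph1, the cytosolic HSP110, had 9.28, 9.05, 8.41 and 9.65 on the Rassf1a-/- Sav1+/- arrays, against 8.22, 10.02, 8.64 and 9.50 on the Sav1+/- arrays. It had 9.07, 9.23, 9.49 and 9.82 on the Rassf1a-/- arrays, against 9.55, 9.15, 9.45 and 9.05 on the wild-type arrays. Its spread within a genotype (pooled SD 0.52) was larger than that of 95.4% of tested genes, and its averaged difference of +0.05 had an interval of -0.44 to 0.54. The interval covers differences of over 0.4 in either direction, so these values do not tell a change of that size from no change. Dnaja1 and Hspe1 stood at the other end, with pooled SDs of 0.15 and 0.14.

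Of the mitochondrial pair, the lid Hspe1 had its lowest signal in the double genotype. It was at 11.56, 11.35, 11.69 and 11.86 on the Rassf1a-/- Sav1+/- arrays, against 12.21, 12.17, 11.92 and 12.05 on the Sav1+/- arrays. It was at 12.24, 12.06, 12.34 and 12.25 on the Rassf1a-/- arrays, against 11.98, 12.02, 12.08 and 12.15 on the wild-type arrays. The 4 double-genotype arrays lay below the other 12 arrays without overlap. The share of all tested genes with such a split of 4 from 12 arrays was not counted. The difference was -0.47 against Sav1+/- (SE 0.13, interval -0.74 to -0.20, adjusted p = 0.0928) and -0.44 against wild type (SE 0.13, adjusted p = 0.119), while Rassf1a-/- against wild type was +0.16 (SE 0.13, adjusted p = 0.660). The interaction of -0.63 (SE 0.18, unadjusted p = 0.00256) did not pass over all genes (adjusted p = 0.343). With the set numbered at the Hspe1 gene itself the difference against Sav1+/- was -0.54 (SE 0.14, adjusted p = 0.0836), and adding the Y-linked signal to the fit gave -0.48, which passed (adjusted p = 0.0435). Leaving out the 5 arrays with Y-linked signal gave -0.41 (SE 0.18, adjusted p = 0.536). The mean of 9 Kupffer cell markers was 9.71 to 10.6 on the Rassf1a-/- Sav1+/- arrays, against 9.40 to 10.8 on the Sav1+/- arrays. It was 9.03 to 9.95 on the Rassf1a-/- arrays, against 9.31 to 10.2 on the wild-type arrays, and its part in the Hspe1 values was not tested.

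Hspd1 had 12.08, 12.33, 12.17 and 12.27 on the Rassf1a-/- Sav1+/- arrays, against 11.68, 12.43, 11.80 and 11.98 on the Sav1+/- arrays. It had 12.33, 12.04, 12.09 and 12.23 on the Rassf1a-/- arrays, against 12.10, 11.96, 12.003 and 12.47 on the wild-type arrays. The groups overlapped in both pairs, and the difference was +0.24 in the Sav1+/- background (SE 0.16, interval -0.10 to 0.58) and +0.04 against wild type (SE 0.16). Although the 2 genes share the 18-base run shown above, no correlation of their signals over 16 arrays passed. Pearson r was -0.08 (permutation p = 0.768) and Spearman rho 0.04 (p = 0.874), and with the sets numbered at the genes themselves r was 0.03 (permutation p = 0.919).

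**Figure D3:**
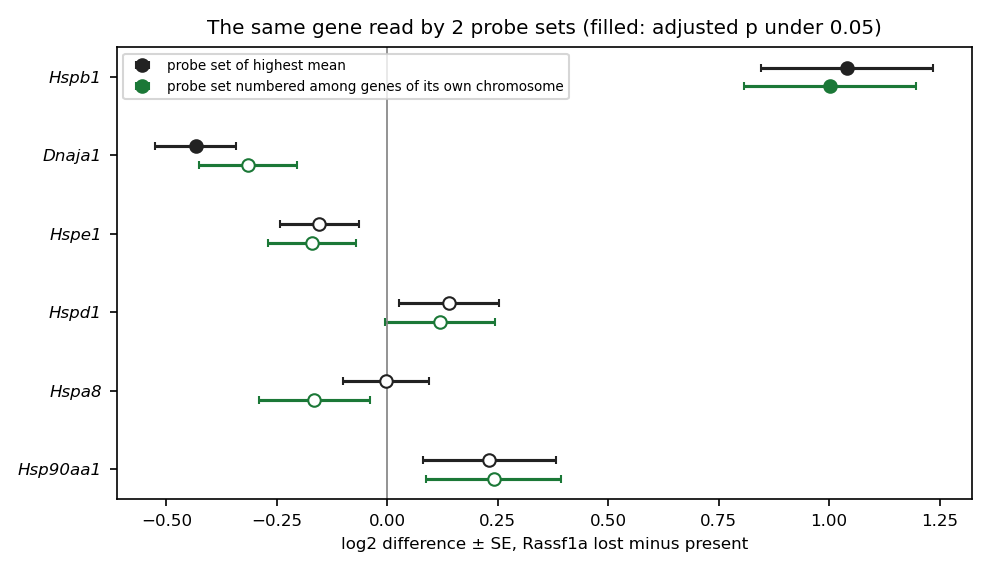
Log2 difference with Rassf1a lost, averaged over both Sav1 states, with SE (x axis), for the 6 genes with several probe sets (rows), read by the set of highest mean and by the set numbered among genes of the gene's own chromosome, with filled symbols for an adjusted p under 0.05. Hspb1 is filled with both sets (+1.04 and +1.002), and Dnaja1 with the first set only (-0.43 and -0.32).

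For all 6 genes with several probe sets, the set of highest mean is numbered among genes of another chromosome. Whether such a set reads the gene, a copy of it elsewhere or both was not tested. The 2 readings of Hspb1 correlated at r = 0.999, those of Hsp90aa1 at 0.998 and those of Hspe1 at 0.989, against 0.850 for Hspd1, 0.693 for Hspa8 and 0.682 for Dnaja1. The Hspb1 difference was +1.002 with the set at the gene itself (SE 0.19, adjusted p = 0.00993).

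The members were chosen with earlier results of these data known, so the shares of all genes set beside them are a description and no test. Taking the 8 genes by comparison, 2 of 8 passed in the averaged Rassf1a effect, where 2.23% of all tested genes passed. Of the 2, 1 was higher (Hspb1, 1.76% of all genes) and 1 lower (Dnaja1, 0.471% of all genes). Dnaja1 was also the 1 member whose 8 arrays without Rassf1a did not overlap the other 8, against 0.776% of all genes. In the double genotype against Sav1+/-, 0 of 8 passed (0.836% of all genes), and 2 of 8 had groups that did not overlap (Dnaja1 and Hspe1, 6.46% of all genes). In Rassf1a-/- against wild type, 0 of 8 passed (0.700% of all genes), and 3 of 8 did not overlap (Hspb1, Dnaja1 and Dnajb1, 10.9% of all genes). The double genotype against wild type gave 0 of 8 (0.821% of all genes) and 3 without overlap (Hspb1, Dnaja1 and Hspe1, 10.8%). The last 2 comparisons and the next share the wild-type arrays.

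Sav1+/- against wild type gave 0 of 8 by limma, as it gave 0% of all genes, and 0 of 8 without overlap (4.68% of all genes). The interaction also gave 0 of 8 and 0% of all genes. At an unadjusted p under 0.05 the members counted 3 in the averaged effect (15.3% of all genes), 3 in the double genotype against Sav1+/- (15.0%), 2 in Rassf1a-/- against wild type (10.4%), 3 in the double genotype against wild type (13.6%), 0 in Sav1+/- against wild type (9.15%) and 1 in the interaction (9.40%). The median difference of the 8 in the averaged effect was +0.02, beside +0.03 for all 13152 genes, and 4 of 8 lay above 0 (55.1% of all genes). The 2 members that passed went opposite ways.

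Some members varied together across the arrays. Of 28 pairs, 5 correlated over the 16 arrays after Benjamini-Hochberg adjustment of permutation p-values, 4 positively and 1 negatively. Hsp90aa1 and Hsph1 had Pearson r = 0.86 (permutation p = 2e-05, adjusted p = 0.00056) and Spearman rho = 0.82 (p = 0.00025, adjusted p = 0.00462). Without the 2 arrays farthest from the median of Hsp90aa1, r was 0.79, over the 11 arrays of low Y-linked signal it was 0.87, and after removing each genotype's mean it was 0.91. Hspa8 correlated with Hsph1 at r = 0.77 and rho = 0.80 (adjusted permutation p = 0.00735 and 0.00462) and with Hsp90aa1 at r = 0.75 and rho = 0.78 (adjusted permutation p = 0.00735 and 0.00495). These 2 pairs kept r of 0.67 and 0.61 without the 2 farthest arrays, and within genotypes r was 0.76 and 0.74. Dnaja1 and Dnajb1 had r = 0.69 and rho = 0.66 (adjusted permutation p = 0.0189 and 0.0306), and r = 0.53 without the 2 farthest arrays. Both had lower means where Rassf1a was lost, and within genotypes their r was 0.55.

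The negative pair was Dnaja1 and Hspb1, with r = -0.73 and rho = -0.74 (adjusted permutation p = 0.00735 and 0.0119). That value holds the genotype differences described above, and within genotypes r was -0.14. Within genotypes r was -0.43 to 0.91 over all 28 pairs. For the 10 pairs among Hspa8, Hsp90aa1, Hsph1, Dnajb1 and Dnaja1, within-genotype r was 0.55 to 0.91. That range does not set these genes apart. Hspd1, which is not among them, had within-genotype r of 0.59 with Dnajb1 and 0.56 with Hsp90aa1. All remaining pairs outside the 10 lay below 0.55. With the probe sets numbered at the genes themselves the range of the 10 pairs was 0.14 to 0.91. Of all 28 pairs 1 then passed, Hsp90aa1 and Hsph1 (r = 0.85, permutation p = 2e-05, adjusted p = 0.00056). The other 4 pairs passed with the sets of highest mean alone.

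**Figure D4:**
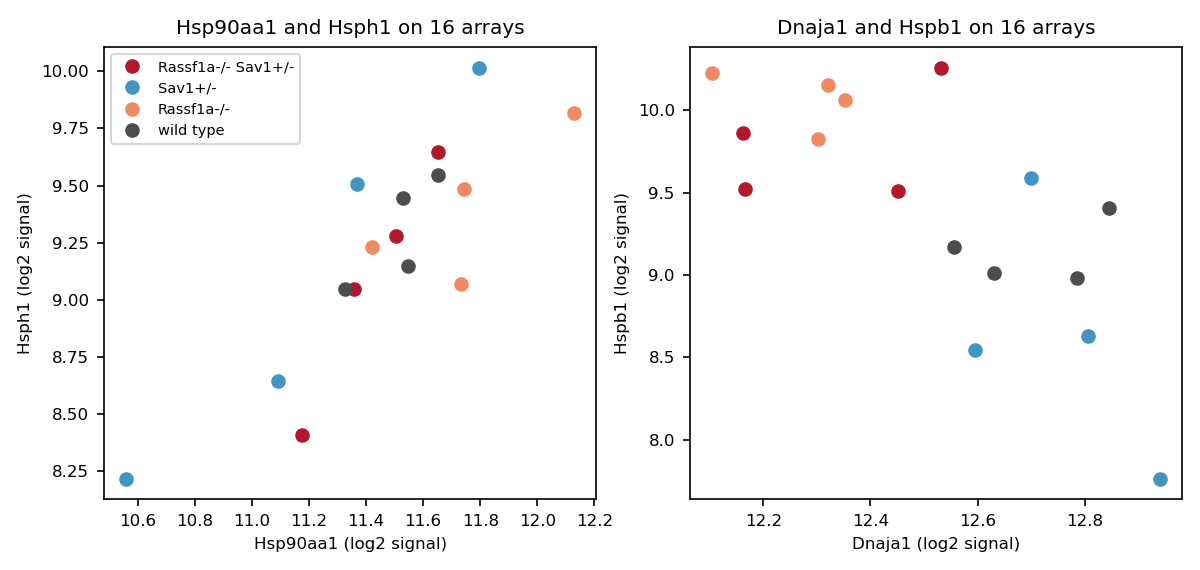
Log2 signals of Hsph1 against Hsp90aa1 (left) and of Hspb1 against Dnaja1 (right) on 16 arrays, coloured by genotype. On the left the arrays of each genotype spread along a common rising line (r = 0.86), and on the right the arrays without Rassf1a stand at lower Dnaja1 and mostly higher Hspb1 signal (r = -0.73, within genotypes -0.14).

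Sav1+/- livers had the largest SD of the 4 genotypes for 5 of 8 members. Sav1+/- replicate 2 had the highest signal of all 16 arrays for 3 of 8 members (Hsph1 at 10.02, Dnajb1 at 9.56 and Dnaja1 at 12.94) and the lowest for 1 (Hspb1 at 7.76). Sav1+/- replicate 1 had the lowest of all 16 arrays for 4 of 8 members. On that array 2.97% of all probe sets read below 1, the top of a range of 1.30% to 2.97% over the 16 arrays. The part of this measure in its low values was not tested. The probe set shared by Hspa1a and Hspa1b, the inducible HSP70 genes, was 7.75 to 7.98 in the Rassf1a-/- Sav1+/- livers and 7.32 to 9.24 in the Sav1+/- livers, with the highest value in the same replicate 2. It was 7.40 to 7.78 in the Rassf1a-/- livers and 7.65 to 8.23 in the wild-type livers, and it entered no test. Leaving out Sav1+/- replicate 2 gave Hspb1 an averaged difference of +0.90 (adjusted p = 0.00584) and Dnaja1 one of -0.40 (adjusted p = 0.0198).

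Around these genes, 110 other chaperone genes in 9 lists, also chosen with earlier results known, were examined. Of these, 106 had a probe set that names them alone, and 97 were also bright enough to test. In the averaged effect 1 of the 97 passed (2.23% of all genes did), and 67 lay above 0 (55.1% of all genes), with a median of +0.11 beside +0.03 for all genes. That gene was Sdf2l1, which belongs to a chaperone complex of the endoplasmic reticulum. It averaged 11.34 ± 0.40 in Rassf1a-/- Sav1+/- and 10.71 ± 0.34 in Sav1+/- livers, and 11.77 ± 0.45 in Rassf1a-/- and 10.47 ± 0.32 in wild-type livers (SD, n = 4 each). Its averaged rise was 0.97 (SE 0.17, 1.95-fold, adjusted p = 0.00597), and against wild type Rassf1a-/- livers stood 1.30 higher (SE 0.25, adjusted p = 0.0160) with no overlap. In the Sav1+/- background its difference was +0.63 (SE 0.25, adjusted p = 0.238), and the groups overlapped.

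The endoplasmic reticulum list as a whole had all 14 of its genes above 0 in the averaged effect, with a median of +0.25 (55.1% of all genes lay above 0, with a median of +0.03). Besides Sdf2l1 none passed. Of the parts of that average, the double genotype against Sav1+/- had all 14 above 0 with a median of +0.38 (62.8% of all genes lay above 0), and none passed. Rassf1a-/- against wild type had 12 of 14 above 0 with a median of +0.13 (48.3% of all genes). Calr, the lectin chaperone calreticulin, was at +0.37 (SE 0.12, adjusted p = 0.129) and Pdia6, a disulfide isomerase, at +0.49 (SE 0.17, adjusted p = 0.140). Among relatives of HSP70 and HSP110, 0 of 12 passed, the median was +0.10, and Hspa13, an HSP70 of the secretory compartment, had the smallest p (+0.51, SE 0.15, adjusted p = 0.0814). Hspa2, the HSP70 best known from the testis, was at -0.54 (SE 0.19, adjusted p = 0.148). Its 2 backgrounds were unlike in size, at +0.02 in the double genotype against Sav1+/- (adjusted p = 0.980) and -1.10 in Rassf1a-/- against wild type (adjusted p = 0.0695), with an interaction of +1.12 (unadjusted p = 0.00766, adjusted p = 0.387). Stub1, a ubiquitin ligase that binds HSP70, was at +0.24 (adjusted p = 0.208).

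Among 16 other J proteins 0 passed and the median was +0.11, with Dnajc12 at -0.33 (SE 0.13, adjusted p = 0.204). Of 13 HSP90 co-chaperones 0 passed, 11 lay above 0 and the median was +0.14. They included Tomm34 at +0.42 (SE 0.12, adjusted p = 0.0712), Unc45a at +0.36 (adjusted p = 0.149) and Stip1, which bridges HSP70 and HSP90, at +0.25 (adjusted p = 0.214). Of 6 other small heat shock proteins 0 passed, the median was -0.03, and Cryab, the alpha B-crystallin of lens and muscle, was at +0.39 (SE 0.13, adjusted p = 0.115).

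The cytosolic chaperonin and prefoldin list had 0 of 15 genes past the test and a median of +0.01, with Pdcl3, a chaperonin cofactor, at +0.34 (adjusted p = 0.0829) and Cct2, a chaperonin subunit, at +0.24 (adjusted p = 0.258). The 11 other mitochondrial chaperones gave 0 and a median of +0.06. In the double genotype against wild type 10 of those 11 lay below 0 (41.3% of all genes), with a median of -0.21, beside +0.05 for all genes and -0.44 for Hspe1. The 8 measured heat shock factors and other HSF1 targets gave 0 and a median of +0.12, with Serpinh1, a collagen chaperone, at +0.33 (SE 0.14, adjusted p = 0.247). Rbm3, an RNA-binding protein that increases with cooling, was at -0.43 (SE 0.15, adjusted p = 0.165), and Cirbp, its relative, at +0.14 (SE 0.16, adjusted p = 0.722).

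**Figure D5:**
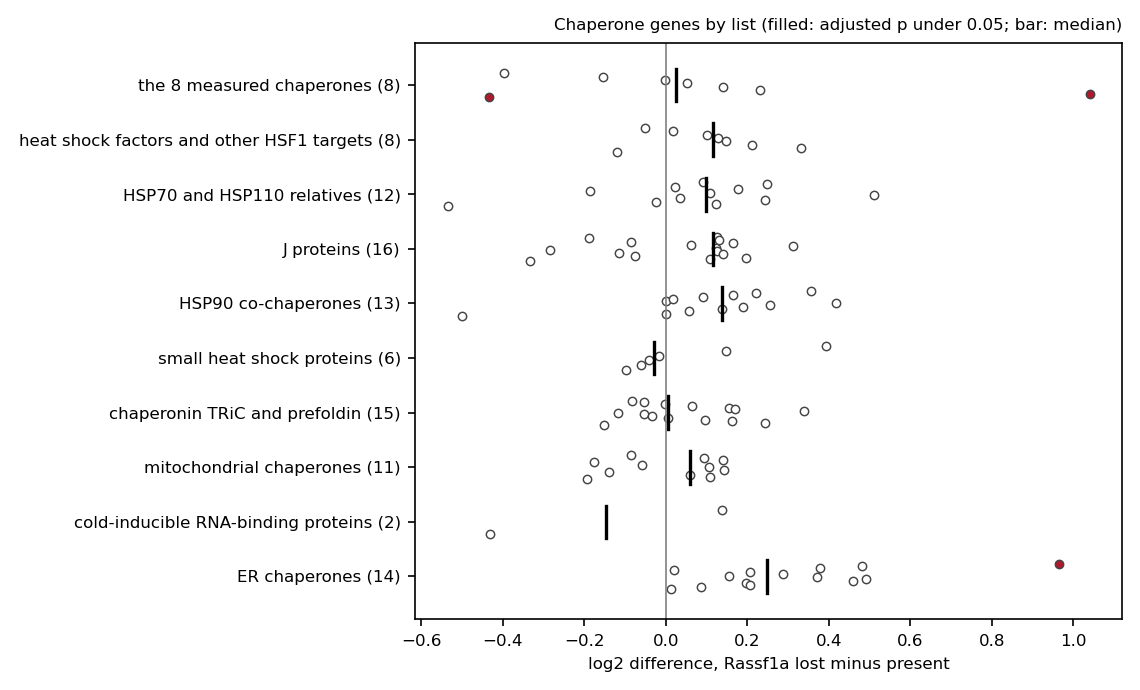
Log2 difference with Rassf1a lost, averaged over both Sav1 states (x axis), of each measured gene in the 8 chaperones and in 9 lists of related genes (rows, number of genes in brackets), with a bar for the median and filled points for an adjusted p under 0.05. All 14 genes of the endoplasmic reticulum list lie above 0 with a median of +0.25, and Hspb1, Dnaja1 and Sdf2l1 are the filled points.

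Several measures moved beside Hspb1 and Dnaja1. Of 5 clock genes 4 passed in the averaged effect, where 2.23% of all genes passed. Arntl was at +3.19, Dbp at -2.67, Per2 at -1.71 and Per1 at -1.67 (adjusted p of 1.6e-06 to 0.00153), while Nr1d1 was at +0.40 (adjusted p = 0.136). Markers of other liver cell types did not pass. Of 9 Kupffer cell markers 3 lay above 0 in the averaged effect (median -0.01), of 6 stellate cell markers 4 (median +0.21), of 6 sinusoidal endothelial markers 5 (median +0.05) and of 6 hepatocyte markers 1 (median -0.02). Among all genes 55.1% lay above 0, with a median of +0.03. Of the other marker lists, 1 of 5 cholangiocyte, 2 of 6 T and B cell, 2 of 4 neutrophil and 2 of 4 red blood cell genes were among the tested genes. Their medians were -0.20, +0.01, -0.21 and +0.42. The mean of the stellate markers was 9.73 to 10.09 in Rassf1a-/- Sav1+/- and 9.63 to 9.95 in Sav1+/- livers, and 9.62 to 10.24 in Rassf1a-/- and 9.66 to 9.997 in wild-type livers. The part of the clock genes and of cell makeup in the chaperone differences was not tested.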

How the data were processed

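Mouse liver RNA of 16 samples was measured on Affymetrix arrays, and samples were grouped by the genotype in their labels. The values the authors deposited are log2 signals per probe set and array, and the submitters' processing notes name Affymetrix Expression Console, with settings not given in the sources used here. The number of arrays limits the precision. Probe sets with 1 gene in the platform annotation (21789 of 35556) were used. They were kept if 4 or more arrays had them at or above the 40th percentile of such probe sets on that array. They were then reduced to the set of highest mean per gene, which left 13152 genes. Each was fitted with limma 3.58.1 (R 4.3.3; lmFit, eBayes) as 4 genotype means with 12 residual degrees of freedom, two-sided, with Benjamini-Hochberg adjustment over all genes and a threshold of 0.05 in each of 6 comparisons. Values with SE are limma's. Correlations used 100000 permutations, two-sided (Python 3.11.15, scipy 1.17.1). The code was tested on simulated data. The named genes are all members, every called list gene, up to 3 genes per list with the smallest p in the averaged effect and the 5 genes most like the members. Members and lists were chosen with earlier results of these data known. Alternatives were no filter, a stricter filter (percentile 60), averaging all probe sets of a gene, quantile normalization, only the compared genotypes, array weights, a trended robust prior, the Y-linked mean as a covariate, no arrays of high Y-linked signal and each array left out. The probe set numbered on the gene's own chromosome was added after the data were seen. Probe sets of several genes or none were left out.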

Additional observations from a re-analysis of the deposited data

Results flagged for a closer look

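The probe set shared by Hspa1a and Hspa1b, inducible HSP70 genes, entered no comparison because it names 2 genes. It read 9.24 in Sav1+/- replicate 2 and 8.31 in Sav1+/- replicate 4, both above the wild-type range of 7.65 to 8.23. The other Sav1+/- arrays read 7.99 and 7.32, so the Sav1+/- group had livers above and below that range. Only values above the range were flagged, and Rassf1a-/- replicates 1, 2 and 4 lay below it at 7.40, 7.45 and 7.52. The percentile used as the filter for dim probe sets stood at 7.16 to 7.44 on these arrays. Among the 8 measured chaperones, 32 groups of 4 arrays were examined for a single array far from the others, and 0 were found.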

How the results depend on the processing

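Over 48 differences (8 genes in 6 comparisons) and their alternative settings, 1137 of 1232 values kept direction and side of the threshold, 13 newly passed, 2 no longer passed and 80 changed sign. The 2 were Dnaja1 in the averaged effect, at -0.42 when the 5 arrays with Y-linked signal were left out and -0.32 with the probe set of its own chromosome. Both left 1 member called, and the cause was not tested for the second, while the first has fewer samples. In Rassf1a-/- against wild type, 1 member passed with only the compared genotypes (Hspb1) and 2 with array weights (Hspb1 and Dnaja1). In the double genotype against Sav1+/-, 1 passed with the stricter filter, 2 with the Y-linked covariate, 3 with the trended robust prior, and 0 to 1 with 1 array left out (Hspb1 at +1.48, adjusted p = 0.00733, without Sav1+/- replicate 4). In the double genotype against wild type, 3 passed with array weights (Dnajb1, Hspb1 and Hspe1). The cause was not tested.

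Sign changes were of differences that did not pass as reported, up to a size of 0.23 (the Hspb1 interaction). With quantile normalization they were Hspd1 in Rassf1a-/- against wild type (-0.0065) and the Hspa8 interaction (0.026). With array weights they were Hspe1 in Sav1+/- against wild type (-0.025), Hsph1 in the double genotype against Sav1+/- (0.029) and the Dnajb1 interaction (-0.074). With the Y-linked covariate they were Hspa8 in Rassf1a-/- against wild type (0.017), averaged Hspa8 (0.0051), Dnajb1 in Sav1+/- against wild type (0.13) and the interactions of Dnaja1 (-0.016) and Dnajb1 (-0.077). When the 5 arrays with Y-linked signal were left out they were Hspa8 in Rassf1a-/- against wild type (0.029), in the double genotype against Sav1+/- (0.15) and averaged (0.088), and the interactions of Dnaja1 (-0.079) and Hspa8 (0.12). With the own-chromosome probe set it was Dnaja1 in Sav1+/- against wild type (-0.013). With 1 array left out at a time, these ranges crossed 0. In Rassf1a-/- against wild type they were Hspa8 from -0.038 to 0.065, Hspd1 from -0.019 to 0.15 and Hsph1 from -0.036 to 0.21. Sav1+/- against wild type gave Dnaja1 from -0.0040 to 0.11, Dnajb1 from -0.32 to 0.039, Hspe1 from -0.012 to 0.083 and Hsph1 from -0.51 to 0.091. In the double genotype against wild type they were Hsph1 from -0.39 to 0.027. The double genotype against Sav1+/- gave Hspa8 from -0.11 to 0.051 and Hsph1 from -0.29 to 0.31. In the averaged effect they were Hspa8 from -0.057 to 0.030 and Hsph1 from -0.095 to 0.20. The interaction gave Dnaja1 from -0.065 to 0.062, Dnajb1 from -0.11 to 0.29, Hsp90aa1 from -0.24 to 0.17, Hspa8 from -0.11 to 0.052, Hspb1 from -0.055 to 0.55 and Hsph1 from -0.40 to 0.20. Counts over all genes ran from 54 to 898 in Rassf1a-/- against wild type (92 as reported), 0 to 479 in the double genotype against Sav1+/- (110), 6 to 1231 in the double genotype against wild type (108) and 80 to 800 in the averaged effect (293). No paired analysis was possible because no replicate number stands in the labels. Only the compared genotypes could not be used for the averaged effect and the interaction, which need all 4.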

Other observations

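The genes whose signal was most like the mean of the 8 chaperones (each centred and scaled over the 16 arrays) were Rbm8a2 (Pearson r = 0.934), Cd300lg (0.894), Man1b1 (0.883), Abhd12 (0.877) and Sh3gl1 (0.873). Man1b1 encodes a mannosidase of the secretory pathway that trims glycoproteins for degradation, and Abhd12 encodes a lysophospholipid hydrolase. These are the highest of all tested genes by rule, so the values describe the arrays and carry no test.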
